A study of Mus musculus with 58 samples.

Results

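The 8 genes described here belong to opioid and endocannabinoid signalling and were followed through the count tables of mouse striatum. The members were chosen by their function in reward circuits, with no rule on their values but with earlier results of these data known. All 8 had counts among the 54532 genes of the RNA-seq tables and the 18411 genes of the lysate RNA and footprint tables. Oprm1, Oprd1, Oprk1 and Oprl1 encode the mu, delta, kappa and nociceptin receptors. Cnr1 encodes the CB1 cannabinoid receptor. Dagla makes the endocannabinoid 2-arachidonoylglycerol (2-AG), Mgll degrades it, and Faah degrades the endocannabinoid anandamide.

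Opioid receptors and CB1 are receptors coupled to inhibitory G proteins that lower transmitter release and neuronal excitability. Opioid peptides are cut from precursors such as proenkephalin and prodynorphin, which spiny projection neurons, the main output cells of the striatum, make in quantity. Endocannabinoids are lipids made on demand in the postsynaptic cell that travel back to CB1 on the axon terminal, and both systems are known for their part in reward, motivation and habit.

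The striata came from 2 mouse lines, each compared with wild type (wt) mice. The 3g del/+ mice come from 1 edited line, made with CRISPR/Cas9, that carries premature stop codons in 1 copy of Taok2, Sez6l2 and Mvp. The 16p11.2 del/+ mice lack 1 copy of the whole interval that corresponds to human 16p11.2. RNA-seq covered 4 libraries for each line, genotype and sex (32 in all), and ribosome footprints with RNA of the same lysate covered other males, 3 del/+ and 3 wt of the 3g line and 3 del/+ and 4 wt of the 16p11.2 line. The labels give strain B6129S, condition and sex for every library and no other treatment. By the study's methods the mice of its experiments were young adult littermates. The methods text used here does not describe the ribosome profiling, so age and litter of those males are not given. Whether the RNA-seq libraries of a group came from separate animals is not said in the labels, so p-values measure the spread between libraries.

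RNA-seq libraries held 11711099 to 65529807 counts in the 3g line and 26592767 to 41300015 in the 16p11.2 line, lysate RNA libraries 15102576 to 19122488, and footprint libraries 342052 to 678130. Depth was split by genotype in 3g females (24332636 to 36821127 in del/+, 42289823 to 65529807 in wt). It was also split in 3g footprints (527917 to 678130 in del/+, 342052 to 422918 in wt). In the other genotype comparisons the depths overlapped. The part of depth in the differences was not tested. Levels are read counts scaled to library size (CPM) after TMM scaling within a line and assay, so values of the lines, and of RNA-seq and lysate RNA, stand side by side only, and line and sequencing batch cannot be told apart. No member was corrected for transcript length, so levels are compared between groups and not between genes. Not every target was clearly lower in del/+. In RNA-seq of 16p11.2 males Taok2 was at 84.6 ± 5.1 CPM in del/+ and 167 ± 13.1 in wt (SD, n = 4 each). In 3g males Sez6l2 was at 215 ± 13.5 and 320 ± 27.2, and Mvp at 6.29 ± 0.996 and 8.22 ± 0.75. Taok2 in 3g males was at 184 ± 15.6 and 188 ± 2.27. In 3g lysate RNA Mvp was at 3.32 ± 0.419 CPM in del/+ and 3.5 ± 0.672 in wt (n = 3 each). Markers of spiny projection neurons were abundant in all groups, with summed levels of 4543 to 8920 CPM over 10 genes in RNA-seq. In RNA-seq 2 libraries stood apart: on a scale over 11385 genes where wt females of the 3g line average 0 and those of the 16p11.2 line 1, the library labelled 3g wt male 17 lay at 0.84 against -0.08 to 0.18 for the other 3g libraries, and the library labelled 16p11.2 del/+ male 4 lay at 0.21 against 0.81 to 1.26. A further library, labelled 16p11.2 del/+ female 1, held Ddx3y, a Y-linked gene, at 37.1 CPM and Xist at 0.445 CPM. Ddx3y was at 0 CPM in the 16p11.2 wt females and at 32.9 to 40.2 in the 16p11.2 del/+ males. Xist was at 842 to 907 CPM in 3g del/+ females and 0.243 to 0.591 in 3g del/+ males. Both values of this library are therefore those of a male, and the main tests kept it as a female under its label. Members' genotype differences in RNA-seq are given both ways where they change sign or move by over 1.5 times without 1 of these libraries. Genotype differences of other genes rest on all libraries of a group.

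The genes lie on 6 chromosomes (GRCm38.p6, RefSeq gene spans): Oprk1 at chr1:5588450-5606134, Oprl1 at chr2:181715000-181720985, Cnr1 at chr4:33923171-33948831, Faah at chr4:115996668-116018837, Oprd1 at chr4:132110188-132144486, Mgll at chr6:88724412-88828360, Oprm1 at chr10:6758593-7038209 and Dagla at chr19:10245265-10304877. None lies in the region on chromosome 7 that the 16p11.2 del/+ mice lack. RefSeq promoter sequences were at hand for 6 of the 8 genes, and not for Oprk1 and Dagla. Shown are the 250 bases before an annotated start of Cnr1, Oprd1 and Oprm1. Levels of the receptor genes Cnr1 and Oprd1 went up and down together over the RNA-seq libraries, and those of Oprm1 did not follow them. The Cnr1 window lies within the gene span given above, before a start inside that span. Capitals mark the GC box GGGCGG, read on both strands.
Cnr1, chr4:33924014-33924263, plus strand: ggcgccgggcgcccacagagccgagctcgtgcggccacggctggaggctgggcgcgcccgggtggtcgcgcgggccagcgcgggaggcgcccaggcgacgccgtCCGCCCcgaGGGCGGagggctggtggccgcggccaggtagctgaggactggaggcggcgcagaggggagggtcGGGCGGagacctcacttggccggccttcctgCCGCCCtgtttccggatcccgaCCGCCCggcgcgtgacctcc
Oprd1, chr4:132144487-132144736, minus strand: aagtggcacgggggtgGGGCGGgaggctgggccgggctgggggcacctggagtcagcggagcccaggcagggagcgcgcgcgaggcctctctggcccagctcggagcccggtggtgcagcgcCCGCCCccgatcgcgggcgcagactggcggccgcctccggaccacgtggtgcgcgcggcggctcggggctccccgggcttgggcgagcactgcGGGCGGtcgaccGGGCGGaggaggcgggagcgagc
Oprm1, chr10:6758343-6758592, plus strand: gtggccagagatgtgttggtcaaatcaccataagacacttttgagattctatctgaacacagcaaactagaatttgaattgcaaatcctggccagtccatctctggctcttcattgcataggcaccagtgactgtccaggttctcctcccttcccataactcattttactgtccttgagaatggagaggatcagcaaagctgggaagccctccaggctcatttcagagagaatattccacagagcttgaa
The Cnr1 window held 36 CpG pairs and the Oprd1 window 34, against 0 in the Oprm1 window and a median of 6 over the 32851 promoter windows of the table. Both the Cnr1 and the Oprd1 window shown held GC boxes, which 32.7% of all windows held, and the Oprm1 window shown held none. Other starts of the same genes differed: the other two Cnr1 windows held 28 and 5 CpG pairs and no GC box, and the other two Oprm1 windows held 4 CpG pairs each and the CCAAT box CCAAT, found in 33.8% of all windows. A window of Mgll, whose level did not follow that of Cnr1 (r = -0.0024), held 40 CpG pairs and a GC box. The TATA box TATAAA (12.4% of windows) and the cyclic AMP response element TGACGTCA (1.55%) were in none of the 3 sequences shown. Cnr1, Oprl1 and Oprm1 each have 3 starts in the table and Mgll has 2, and the window shown is that of the first start listed.

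Across the genotype comparisons, none of the 8 genes passed the threshold of an adjusted p under 0.05 (quasi-likelihood test of edgeR, Benjamini-Hochberg adjusted over all genes tested). The smallest adjusted p-values were those of the kappa receptor gene in 16p11.2 males and of the CB1 and delta receptor genes in 3g females. Few genes of any kind passed: for the 3g line 0% of 19081 in males and 0.00526% of 19024 in females, and for the 16p11.2 line 0.106% of 17957 in males and 0.144% of 18067 in females. At an unadjusted p under 0.05 stood in the 3g line 0 of the 8 members in males, where 1.44% of all genes did, and 3 in females (11%), and in the 16p11.2 line 1 in males (5.82%) and 2 in females (4.47%). DESeq2, run on the same counts, called 0, 2, 1 and 0 members in these 4 comparisons. The median log2 difference of the 8 genes, del/+ against wt, was -0.02 and 0.07 in males and females of the 3g line and 0.09 and 0.09 in those of the 16p11.2 line, while the median over all genes tested was -9.99e-05, -0.0012, -0.0051 and -0.0012.

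**Figure D1:**
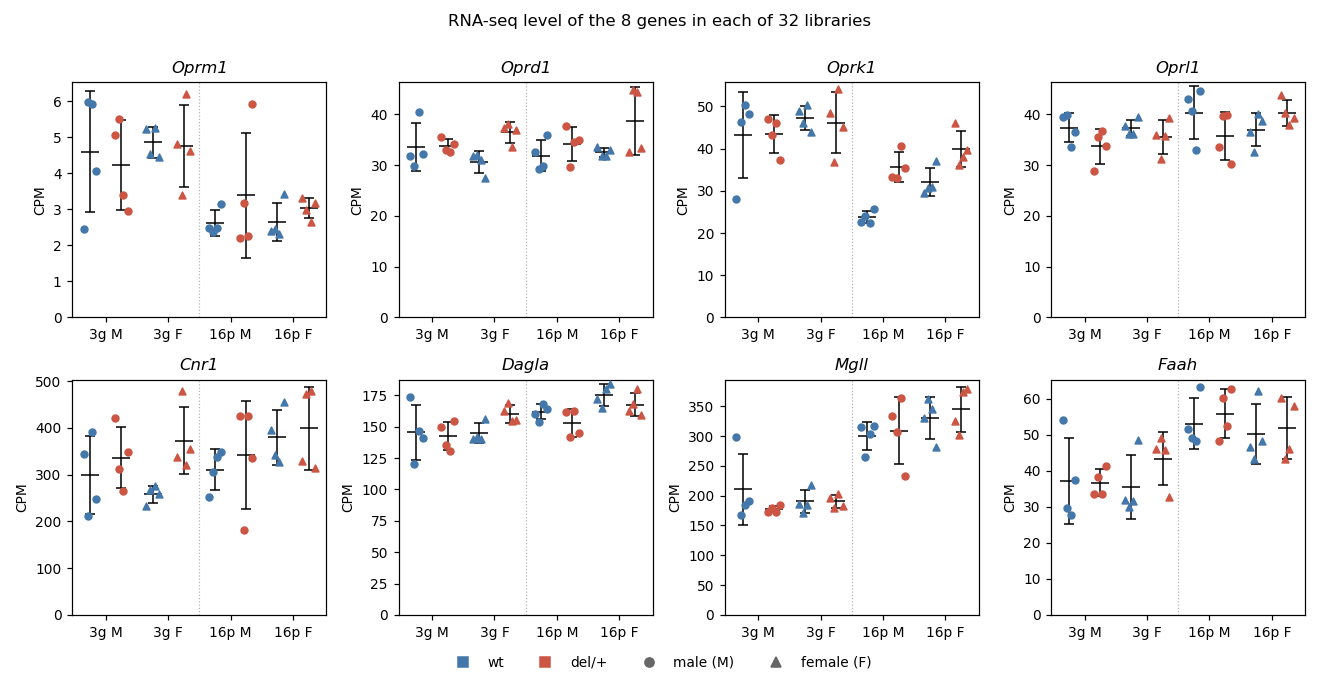
RNA-seq level (CPM, linear axis from 0) of the 8 genes, 1 panel a gene, with 1 point a library in blue for wt and red for del/+, circles for males (M) and triangles for females (F), and the mean with 1 SD in black (n = 4). The wt males of the 16p11.2 line lie at 22.5 to 25.6 CPM for Oprk1, under all other libraries of that line, and the Mgll panel steps up from the 3g to the 16p11.2 line.

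Oprk1 encodes the kappa receptor, which binds dynorphin. In 16p11.2 males it was at 33.4, 33, 40.6 and 35.4 CPM in del/+ and at 22.7, 24.1, 22.5 and 25.6 CPM in wt. Every del/+ library was above every wt library. The log2 difference was 0.59 (SE 0.10, edgeR adjusted p = 0.104), and 3.88% of all genes tested had groups without overlap in this comparison. DESeq2 called it (adjusted p = 4.83e-04), as did edgeR with all 16 libraries of the line in 1 fit (adjusted p = 0.0125), and over the alternatives the adjusted p ran from 4.83e-04 to 0.641. Without the library labelled del/+ male 4 the difference was 0.59 (edgeR adjusted p = 0.161).

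In 16p11.2 females Oprk1 was at 46.1, 36, 37.9 and 39.6 CPM in del/+ and 29.6, 30.7, 30.9 and 37.1 CPM in wt. The highest wt library lay within the del/+ range. The difference was 0.31 (SE 0.10, edgeR adjusted p = 0.93) and 0.24 without the library labelled del/+ female 1, which was the highest of the group. The difference between the sexes in the effect of genotype was -0.27 (females minus males, SE 0.14, unadjusted p = 0.0667, edgeR adjusted p = 0.835), and -0.35 without the libraries labelled del/+ male 4 and del/+ female 1 (unadjusted p = 0.0217, edgeR adjusted p = 0.995). Among wt libraries Oprk1 lay higher in females than in males, with a log2 difference of 0.43 (SE 0.09, edgeR adjusted p = 0.407). DESeq2 called this difference (adjusted p = 0.0187). All 4 females lay above all 4 males, and the share of all genes split in this way between the wt sexes was not computed.

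The 16p11.2 males used for ribosome profiling did not show this separation. Their lysate RNA held Oprk1 at 19.7, 19.9 and 25.4 CPM in del/+ and 20.6, 21.5, 16.9 and 31.6 CPM in wt, and the groups overlapped. The difference was -0.07 (2 SE either side: -0.44 to 0.31), so that interval ends below the 0.59 of the RNA-seq males. In the 3g line Oprk1 differed by 0.01 in males (SE 0.17) and -0.04 in females (SE 0.09). The library labelled 3g wt male 17 held 28.1 CPM against 46.2 to 50.3 CPM in the other 3g wt males, and without it the male difference was -0.16.

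Cnr1, the CB1 receptor gene, lay higher in every 3g del/+ female library than in every wt one. The del/+ libraries held 337, 478, 322 and 355 CPM and the wt libraries 233, 266, 275 and 258 CPM. Groups did not overlap for 5.67% of all genes in this comparison, and the wt libraries lay close together. The difference was 0.53 (SE 0.11, edgeR adjusted p = 0.204), DESeq2 gave an adjusted p of 0.0495, and over the alternatives the adjusted p ran from 0.0012 without a filter on low counts to 1.00 in the fit of all 16 libraries. Leaving out 1 library at a time gave 0.39 to 0.60. In 3g males the groups overlapped, at 264 to 420 CPM in del/+ and 212 to 391 in wt (0.18, SE 0.20), and the difference between the sexes was 0.36 (SE 0.25, edgeR adjusted p = 0.901).

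Footprints of Cnr1 in the separate set of 3g males were at 198, 236 and 358 CPM in del/+ and 109, 181 and 169 CPM in wt, from 38 to 199 counts a library. All del/+ libraries were again above wt, as 13.3% of all genes were split in this comparison. The difference was 0.79 (SE 0.27, unadjusted p = 0.0090, edgeR adjusted p = 0.428). In the same animals Cnr1 lysate RNA differed by 0.16 (SE 0.14), with 216, 218 and 277 CPM in del/+ and 180, 199 and 257 CPM in wt, which overlap. Per RNA, Cnr1 footprints were higher in 3g del/+ by 0.66 (SE 0.31, unadjusted p = 0.0431, edgeR adjusted p = 0.639).

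In the 16p11.2 line Cnr1 footprints lay lower in del/+, at 113, 100 and 155 CPM in del/+ and 137, 178, 166 and 218 CPM in wt, with 1 del/+ library inside the wt range. The difference was -0.52 (SE 0.23, unadjusted p = 0.0283, edgeR adjusted p = 0.749). Lysate RNA differed by -0.22 (SE 0.25) and footprints per RNA by -0.39 (SE 0.36). RNA-seq gave 0.14 (SE 0.23) in males, where the del/+ libraries spread from 181 to 425 CPM, and 0.07 (SE 0.15) in females, 0.15 without the library labelled del/+ female 1. The difference between the lines was not tested.

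Oprd1 encodes the delta receptor, which binds enkephalin. In 3g females it was at 37.2, 38.2, 33.5 and 37 CPM in del/+ and 31.9, 32, 31.1 and 27.5 CPM in wt. The groups did not overlap. The difference was 0.26 (SE 0.06, edgeR adjusted p = 0.204), DESeq2 called it (adjusted p = 0.0275), and the range over the alternatives was 0.0275 to 1.00. In 3g males it was 0.02 (SE 0.10) and -0.015 without wt male 17, and in the 16p11.2 line 0.10 (SE 0.11) in males and 0.25 (SE 0.11, edgeR adjusted p = 0.998) in females. Among 16p11.2 del/+ females, 2 libraries at 44.8 and 44.3 CPM were apart from the other two at 32.6 and 33.4, and the same 2 libraries held the most Cnr1 (473 and 478 CPM against 330 and 315).

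Oprm1, the mu receptor for enkephalin and morphine, had few reads in RNA-seq: 60 to 343 counts a library. The 3g libraries held 2.44 to 6.2 CPM and the 16p11.2 libraries 2.21 to 5.90. The libraries that stood apart were the lowest of the 3g line (wt male 17) and the highest of the 16p11.2 line (del/+ male 4, against at most 3.43 in the other 15). With this library Oprm1 differed by 0.37 in 16p11.2 males (SE 0.31, edgeR adjusted p = 0.774), and without it by -0.03. In 3g males the difference was -0.14 (SE 0.30) and -0.37 without wt male 17. The other genotype differences were -0.04 (SE 0.15) in 3g females and 0.19 (SE 0.17) in 16p11.2 females. Lysate RNA gave 12.1 to 21.4 CPM in both lines, from 217 to 311 counts, with differences of -0.13 (3g, SE 0.16) and -0.11 (16p11.2, SE 0.17).

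Oprl1, the nociceptin receptor gene, was at 28.9 to 39.8 CPM in the 3g line and 30.2 to 44.5 in the 16p11.2 line in RNA-seq. The genotype differences were -0.14 (SE 0.09) and -0.07 (SE 0.06) in 3g males and females, and -0.17 (SE 0.13) and 0.12 (SE 0.08) in 16p11.2 males and females. Without the libraries labelled del/+ male 4 and del/+ female 1 the latter were -0.097 and 0.078. All groups overlapped. Lysate RNA held 4.69 to 13.8 CPM, and footprints only 1 to 20 counts a library.

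Dagla encodes the enzyme that makes 2-AG. In 3g females it was at 163, 169, 154 and 155 CPM in del/+ and at 141, 142, 141 and 156 CPM in wt. A single wt library, female 39, reached into the del/+ range. The difference was 0.14 (SE 0.05, edgeR adjusted p = 0.316), and without wt female 39 it was 0.19 and passed (edgeR adjusted p = 0.0499). In that fit 175 genes were called in place of 1. The library left out held 567 CPM of the cortical neuron markers summed below. The other 3g wt females held 114 to 160.9 CPM and the del/+ females 161.5 to 636. Without it every del/+ library therefore lay above every wt library in that sum, and the part of this in the calls was not tested. In 16p11.2 lysate RNA Dagla was lower in every del/+ library (32.6, 31.3 and 35.5 CPM) than in every wt library (40.7, 39.9, 38.9 and 39.5 CPM), as 5.71% of all genes were split there. The difference was -0.26 (SE 0.09, unadjusted p = 0.0146, edgeR adjusted p = 0.99). RNA-seq of other 16p11.2 males gave -0.08 (SE 0.09) and females -0.07 (SE 0.06), with overlapping groups, and 3g males -0.02 (SE 0.11), 0.067 without wt male 17.

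Mgll, which breaks down 2-AG, was at 168 to 219 CPM in the 3g line apart from 299 in wt male 17, and at 265 to 379 CPM in the 16p11.2 line apart from 232 in del/+ male 4. Genotype differences were -0.24 in 3g males (SE 0.16) and -0.03 without wt male 17, and 0.00 in 3g females (SE 0.07). In the 16p11.2 line they were 0.05 in males (SE 0.14), 0.16 without del/+ male 4, and 0.06 in females (SE 0.10). The order of the lines was not tested, since line and batch cannot be told apart.

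Faah encodes the enzyme that breaks down anandamide, and single libraries of a group lay far from the rest. In 3g wt females it was at 31.9, 29.9, 31.5 and 48.7 CPM, and in 3g wt males at 54.0, 29.6, 27.7 and 37.5 CPM. The 2 high libraries, wt female 39 and wt male 17, also had the most RNA among 3g wt libraries of 5 cortical glutamatergic neuron markers (Slc17a7, Tbr1, Neurod6, Neurod2 and Emx1), at 567 and 912 CPM summed. In 3g del/+ females Faah was at 45.9, 49.1, 45.7 and 32.6 CPM beside marker sums of 485, 636, 453 and 162. The genotype difference was 0.28 (SE 0.16, and 0.48 without wt female 39, edgeR adjusted p = 0.0586) in 3g females, -0.01 (SE 0.19) in 3g males and 0.22 in those males without wt male 17, and 0.07 (SE 0.12) and 0.05 (SE 0.13) in 16p11.2 males and females, with an edgeR adjusted p of 0.537 or more when no library was left out. Without del/+ male 4 the 16p11.2 male difference was 0.015, and without del/+ female 1 the female difference was -0.033.

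Over 15 libraries of each line, leaving out the library that stood apart, Faah rose with the cortical marker sum. In the 3g line, where the sums ran from 35.6 to 636 CPM, Pearson's r was 0.979 (permutation p = 1e-05, the smallest that 100000 resamples can give) and Spearman's rho 0.939 (permutation p = 1e-05). In the 16p11.2 line, with sums from 697 to 1218 CPM, r was 0.951 (permutation p = 1e-05) and rho 0.85 (permutation p = 0.00015). Without the 2 libraries farthest from the median sum, r was 0.973 and 0.931. With the library that stood apart, over 16 libraries, r was 0.969 (permutation p = 1e-05) and rho 0.95 (permutation p = 1e-05) in the 3g line, and r was 0.778 (permutation p = 0.0007, adjusted 0.0028) and rho 0.597 (permutation p = 0.0164, adjusted 0.0525) in the 16p11.2 line. The relation was computed for all 8 genes in both lines, 16 in all, and the two-sided p-values adjusted over them were 8e-05 for r of Faah in both lines. All 16 pooled both genotypes and both sexes of a line without centring within groups. Differences between groups therefore enter r, rho and their p-values.

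In the 3g line Dagla (r = 0.766, adjusted permutation p = 0.0035, rho 0.696, adjusted permutation p = 0.0265) and Mgll (r = 0.678, adjusted permutation p = 0.0196, rho 0.639, adjusted permutation p = 0.0429) also rose with the marker sum, and in the 16p11.2 line their r was -0.318 and 0.0997. Oprl1 rose with it in the 16p11.2 line (r = 0.67, adjusted permutation p = 0.0215, rho 0.632, adjusted permutation p = 0.0429, r = 0.476 without the 2 farthest libraries), and in the 3g line its r was -0.143. For Cnr1 r was 0.358 and -0.527, with adjusted permutation p of 0.326 and 0.117. For Oprk1 r was -0.353 and 0.205, and its difference in 16p11.2 males lay beside marker sums of 739 to 1158 CPM in del/+ and 697 to 1218 in wt. With wt male 17 included, r in the 3g line was -0.659 for Oprk1 (adjusted permutation p = 0.0212, rho -0.429, adjusted permutation p = 0.227) and -0.567 for Oprm1 (adjusted permutation p = 0.0492, rho -0.503, adjusted permutation p = 0.131), and -0.353 and -0.348 without it. In 3g females the sums were 161.5 to 636 CPM in del/+ and 114 to 160.9 in wt apart from 567 in wt female 39. Their part in the Dagla difference was not tested. In bulk tissue a different share of cells and a different amount of RNA per cell cannot be told apart.

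**Figure D2:**
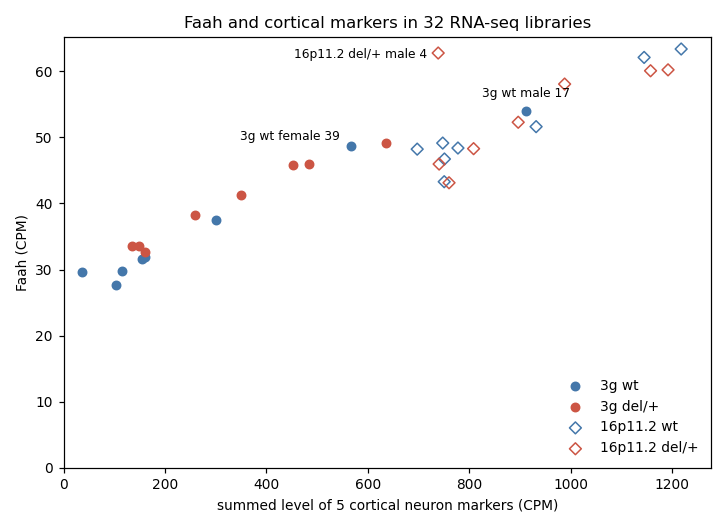
Faah (CPM) against the summed CPM of 5 cortical neuron markers in 32 RNA-seq libraries, filled circles for the 3g and open diamonds for the 16p11.2 line, blue for wt and red for del/+. Within each line Faah rises with the sum in both genotypes. In the 3g line it is at 29.6 CPM at the lowest sum (35.6) and 54.0 CPM at the highest (912, wt male 17). In the 16p11.2 line it is at 48.2 CPM at the lowest sum (697) and 63.4 CPM at the highest (1218). The library labelled 16p11.2 del/+ male 4 lies above the other libraries of a like sum in its line, at 62.8 CPM and a sum of 739.

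The genes whose RNA-seq level over 30 libraries was most like 7 of the members, by Pearson's r of log2(CPM + 1) centred within each group and over 15096 genes (Spearman's rho of the first named lay between 0.729 for Oprl1 and 0.92 for Cnr1), were Car10, Sidt1 and Olfm1 for Faah (r 0.953, 0.951 and 0.946), Rgs7bp, Ace and Gpr139 for Cnr1 (0.938, 0.924 and 0.92), and Socs5, Gabbr1 and Clptm1 for Oprd1 (0.883, 0.874 and 0.873). For Oprm1 they were Pou2f1, Mga and Zbtb20 (0.834, 0.799 and 0.779), for Mgll Mvk, Arhgdig and Mvb12b (0.795, 0.772 and 0.754), for Oprl1 Rest, Nrip3 and Anapc7 (0.792, 0.773 and 0.769), and for Oprk1 Asxl2, 5930430L01Rik and Zfhx4 (0.766, 0.742 and 0.731). Among the members themselves, Cnr1 varied with Dagla (r = 0.743) and with Oprd1 (0.733), Oprm1 with Oprk1 (0.592) and Oprd1 with Dagla (0.525), while Oprd1 and Faah had r = -0.44 and Cnr1 and Oprl1 -0.484. These points share libraries, and the values are a description.

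**Figure D3:**
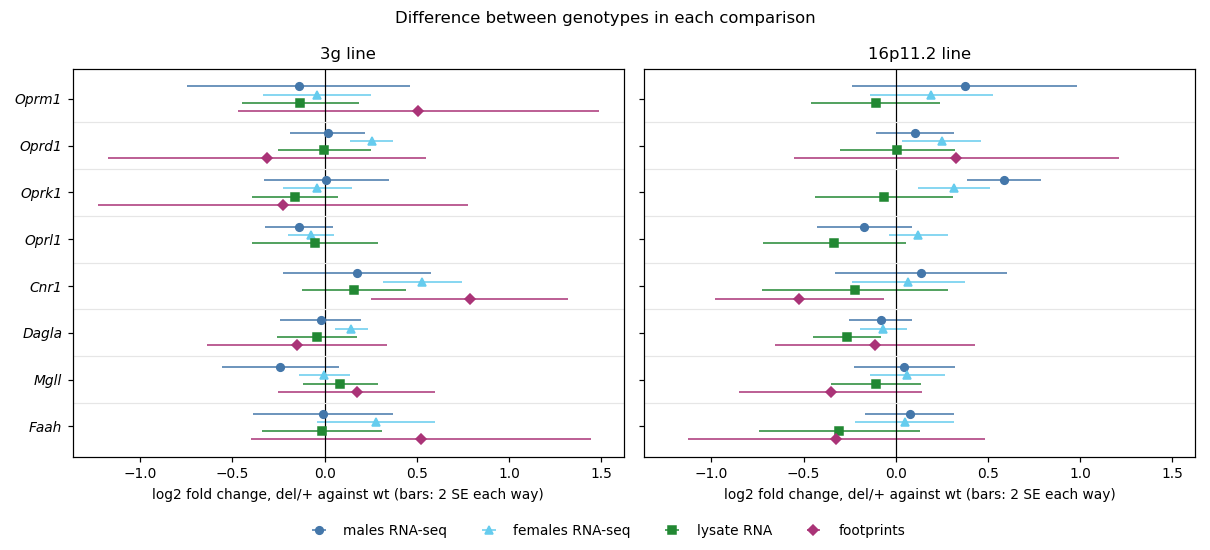
Log2 fold change of del/+ against wt for the 8 genes in RNA-seq of males and females, lysate RNA and footprints, with the 3g line left and the 16p11.2 line right and bars of 2 SE each way. Cnr1 footprints lie at 0.79 in the 3g and -0.52 in the 16p11.2 line, Oprk1 lies at 0.59 in 16p11.2 males, and genes with too few footprints have no diamond.

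Neither lysate RNA nor footprints gave a call for a member. All 8 were tested in lysate RNA, where 0.0209% of 14378 genes passed in the 3g and 0.133% of 14330 in the 16p11.2 line, and at an unadjusted p under 0.05 stood 0 (4.92% of all genes) and 1 (Dagla, 4.41%). The median log2 difference of the members was -0.03 in the 3g and -0.17 in the 16p11.2 lysate RNA, against -0.0014 and 0.0016 over all genes. The filter on low counts kept 7 of 8 in 3g footprints, without Oprl1, and 5 of 8 in 16p11.2 footprints, without Oprk1, Oprl1 and Oprm1. Of all genes tested 0.0132% passed in 3g and 0.117% in 16p11.2 footprints, and unadjusted it was Cnr1 alone in each, beside 7.97% and 6.15% of all genes. DESeq2 called 0 members in all of these. The other footprint differences were within 2 SE of 0, and those intervals were wide, such as -0.47 to 1.49 for Oprm1 and -1.23 to 0.78 for Oprk1 in the 3g line.

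Groups failed to overlap for 0 members in 3g males (1.95% of all genes) and 2 in females (Cnr1 and Oprd1, 5.67%), for 1 in 16p11.2 males (Oprk1, 3.88%) and 0 in females (2.83%), 0 in 3g lysate RNA (9.65%), 1 in 16p11.2 lysate RNA (Dagla, 5.71%), 1 in 3g footprints (Cnr1, 13.3%) and 0 in 16p11.2 footprints (6.69%).

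A difference between the sexes in the effect of genotype was not called for any member by edgeR: 0 of 8 passed in either line, as did 0% of 19830 and 0% of 18870 genes, and 0 stood at an unadjusted p under 0.05 in either line (2.69% and 4.33% of all genes). DESeq2 also called 0. The 16p11.2 counts here keep the library labelled del/+ female 1 as a female. Between wt females and wt males edgeR called 0 members, beside 0.0308% of 19458 genes in the 3g and 0.0336% of 17831 in the 16p11.2 line. Unadjusted, 0 members stood out in the 3g line (2.85% of all genes) and 2 in the 16p11.2 line (5%), Oprk1 (above) and Cnr1 at 0.29 (SE 0.13, edgeR adjusted p = 0.968). DESeq2 called Oprk1 alone.

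Footprints per RNA relate ribosome occupancy to the RNA of the same lysate. The measure is relative to the average gene of the libraries and uncorrected for the share of a transcript that is coding. In wt males Cnr1 was lower in footprints than in lysate RNA in both lines, with a log2 difference of -1.16 in 3g (SE 0.23, edgeR adjusted p = 0.0011) and -0.71 in 16p11.2 (SE 0.20, edgeR adjusted p = 0.0064). Oprk1 was lower too, at -0.98 (SE 0.35, edgeR adjusted p = 0.0367) and -1.10 (SE 0.35, edgeR adjusted p = 0.0148). In the 16p11.2 line Dagla was higher at 0.52 (SE 0.17, edgeR adjusted p = 0.0142) and Faah at 0.90 (SE 0.27, edgeR adjusted p = 0.0089). These were the calls: 2 of 8 members in the 3g and 4 of 8 in the 16p11.2 line, where 44.3% and 46.6% of all genes passed, 20.6% and 21.4% as higher and 23.7% and 25.2% as lower in footprints, so that a call in this comparison was common among genes at large.

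By animal, the Cnr1 ratio of footprint to RNA CPM, scaled over both kinds of library, was 0.362, 0.562 and 0.408 in 3g wt and 0.613, 0.609, 0.64 and 0.505 in 16p11.2 wt. All 7 lay below 1. For Oprk1 it was 0.122, 0.693 and 0.624 in 3g wt and 0.395, 0.482, 0.27 and 0.512 in 16p11.2 wt, from 2 to 13 footprint counts an animal. Leaving out any 1 of the 3 animals in the 3g line ended the Oprk1 call (edgeR adjusted p of 0.0974 to 0.132), while Cnr1 passed each time.

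The Dagla ratio was 1.31, 1.05 and 1.71 in 3g wt and 1.00, 1.17, 1.45 and 1.78 in 16p11.2 wt, all at or above 1.00. The 3g difference was 0.44 (SE 0.18, edgeR adjusted p = 0.0628), and the 16p11.2 call was lost without either of 2 wt animals (edgeR adjusted p of up to 0.167). Faah had ratios of 1.86, 1.83, 1.46 and 2.18 in 16p11.2 wt and 1.40, 0.593 and 1.89 in 3g wt, where 4 footprint counts gave the low value and the difference was 0.43 (SE 0.39, edgeR adjusted p = 0.396). The remaining members did not pass in either line: Oprd1 at 0.42 (SE 0.33) and 0.28 (SE 0.27), Oprm1 at -0.50 (SE 0.43) and -0.29 (SE 0.33), Oprl1 at -0.97 (SE 0.46) and 0.34 (SE 0.39), and Mgll at -0.15 (SE 0.17) and 0.29 (SE 0.17).

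**Figure D4:**
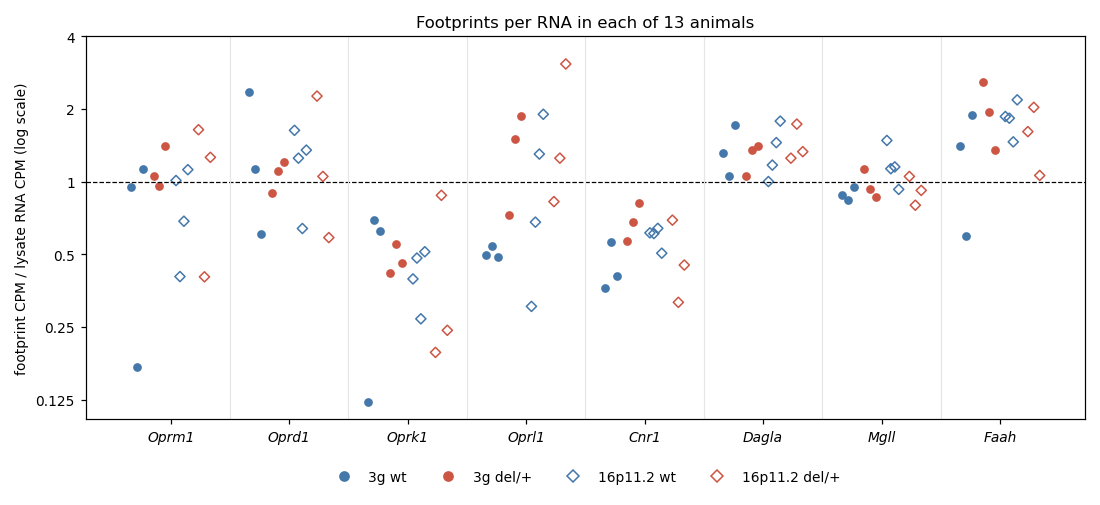
Ratio of footprint CPM to lysate RNA CPM (log axis) of the 8 genes in 13 animals, filled circles for the 3g and open diamonds for the 16p11.2 line, blue for wt and red for del/+, with a dashed line at 1. Every Cnr1 and Oprk1 point lies below 1, and the points of genes with few footprints, such as Oprm1, Oprk1 and Oprl1, spread the most.

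A genotype difference in footprints per RNA was called for 0 of 8 members by edgeR in either line (0% of 15137 and 0.00664% of 15071 genes) and by DESeq2. In the 3g line 2 members stood at an unadjusted p under 0.05, where 7.67% of all genes did: Cnr1 (above) and Oprl1 at 1.46 (SE 0.57, unadjusted p = 0.0167, edgeR adjusted p = 0.567). The Oprl1 ratio was 0.724, 1.5 and 1.87 in 3g del/+ and 0.498, 0.542 and 0.487 in wt, which do not overlap and rest on 3 to 20 footprint counts an animal. In the 16p11.2 line 0 members did, where 6.24% of all genes did. The 3g Cnr1 ratio was 0.569, 0.682 and 0.812 in del/+, all above the wt animals. For neither Cnr1 nor Oprl1 can this split be set against all genes, since the share of genes with split ratios was not computed. In 3g footprints alone 13.3% of all genes tested were split.

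Beyond the members, 38 genes of the pathway were followed. They are the opioid peptide precursors (Penk, Pdyn, Pnoc and Pomc), 7 other endocannabinoid genes (Cnr2, Daglb, Napepld, Abhd6, Abhd12, Naaa and Cnrip1) and 27 processing enzymes and signalling partners. In each genotype, sex and interaction comparison edgeR called 0 of the 38. In 3g females 1 of 4 precursors, 1 of 7 endocannabinoid genes and 10 of 27 partners stood at an unadjusted p under 0.05, the comparison where 11% of all genes did. Penk, the enkephalin precursor, was at 1349 ± 64.0 CPM in 3g del/+ males and 1416 ± 73.2 in wt (SD, n = 4 each), a log2 difference of -0.06 (SE 0.08). It differed by 0.04 (SE 0.08) in 3g females, and in the 16p11.2 line by -0.22 (SE 0.15) in males and -0.02 (SE 0.19) in females. Pdyn, the dynorphin precursor, differed by -0.14 (SE 0.18) and -0.24 (SE 0.12) in males and females of the 3g line and by 0.03 (SE 0.16) and 0.25 (SE 0.11) in those of the 16p11.2 line. Pomc, the precursor of beta-endorphin, was at 0.532 to 1.95 CPM over all RNA-seq libraries and Pnoc at 1.23 to 5.14.

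Both main precursors of the striatum passed in wt males as higher in footprints than in lysate RNA. For Penk the log2 difference was 1.68 (SE 0.23) in the 3g and 1.68 (SE 0.21) in the 16p11.2 line, and for Pdyn 1.17 (SE 0.19) and 0.81 (SE 0.26). Pnoc, the nociceptin precursor, passed in the 3g line at 2.19 (SE 0.63, edgeR adjusted p = 0.0125) from 11 footprint counts in all. Among the other endocannabinoid genes Naaa, an enzyme that hydrolyses N-acylethanolamines, passed in both lines at 1.67 (SE 0.30) and 1.29 (SE 0.27), and Cnr2, the CB2 receptor gene, passed in the 16p11.2 line on 1 to 2 footprint counts a wt library. Of the 27 partners, 6 passed as higher and 9 as lower in the 3g line, and 4 and 9 in the 16p11.2 line. Cpe, the carboxypeptidase that trims propeptides, was higher at 1.36 and 1.19 (SE 0.23 and 0.14), and Dpp3, a peptidase that cleaves enkephalins, at 1.58 and 1.42 (SE 0.32 and 0.29). Mme, the enkephalin-degrading neprilysin, was lower at -1.96 and -1.23 (SE 0.23 and 0.26), Grk5, a receptor kinase, at -1.62 and -1.49 (SE 0.24 and 0.23), and Kcnj6, a potassium channel subunit opened by inhibitory G proteins, at -1.17 and -1.30 (SE 0.44 and 0.34).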

How the data were processed

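Striatal RNA-seq (32 libraries) and paired ribosome footprint and lysate RNA libraries (26) were analysed from tables of raw read counts per gene that the authors deposited. Per the labels and the submitters' processing notes, RNA-seq counts came from HTSeq on mm10, and the lysate RNA and footprint counts from Bowtie2 alignments to mm39. Versions are not given in the sources used here. Groups followed the labels, and 0 sample columns were left unused. Library totals ranged as given above, and footprint libraries, with the fewest counts, limited the precision most.

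Genes were filtered with filterByExpr (minimum count 10), scaled by TMM and tested with edgeR 4.0.16 (quasi-likelihood test, R 4.3.3, limma 3.58.1) within each line and sex, or with an interaction term for sex or for footprints against RNA. P-values were adjusted by the Benjamini-Hochberg method over all genes tested, with a threshold of 0.05. DESeq2 1.42.0, RLE scaling, no filter, a threshold of 0.1, 1 fit for all 16 libraries of a line, a replicate block and leaving out each library were alternatives. The Faah relation used two-sided permutation tests with 100000 resamples, and its values over all 16 libraries of a line were added after seeing the data. The test was checked on simulated data of the same depth: in 16p11.2 males (17722 genes) it recovered 64% of 100 genes changed 2-fold and 88% changed 4-fold, in 3g footprints (6891 genes) 29% and 83%, and in 3g footprints per RNA (14852 genes) 12% and 57%, with 6, 13 and 5 unchanged genes called.

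Footprints and lysate RNA of 1 number came from the same lysate per the labels, so these numbers pair the libraries. RNA-seq replicate numbers of the 16p11.2 line were not used as pairs in the main test. Same-numbered libraries correlated at -0.406 to 0.127, which cannot settle whether the numbers pair libraries, and a block on them was an alternative. The genes named are the 8 members, the precursors and other endocannabinoid genes, other pathway genes that passed (at most the 3 largest changes in each direction of a comparison, named in both lines where they passed in both), and the 3 genes most like a member with a mean of at least 1 CPM. Members and lists were chosen with earlier results of these data known. Gene positions and promoters are from RefSeq (GRCm38.p6). From the cortical list 1 marker was left out of the marker sum after the data were examined, and the genes most like Dagla are not reported here.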

Additional observations from a re-analysis of the deposited data

Results flagged for a closer look

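Among 80 groups of 4 libraries of 8 genes, 4 held a library far from the others of its group, a share that chance gives in about 1 of 20 groups. Oprm1 was at 3.43 CPM in 16p11.2 wt female 4 against 2.31 to 2.46 in the other 3, and at 3.15 CPM in 16p11.2 wt male 4 against 2.38 to 2.49. In 3g wt female 39, Dagla was at 156.5 CPM against 140.5 to 141.9 in the other 3, and Faah at 48.7 CPM against 29.9 to 31.9. The same library had the most cortical marker RNA of the 3g wt females (567 CPM against 114 to 161). The part of these values in the results was not tested.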

How the results depend on the processing

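Of 1579 alternatives over 124 results for single members, 1425 kept direction and side of the threshold, 117 changed sign within 1 SE without a call, 6 lost a call, 11 gained one and 20 changed sign by more. Members called in 3g females became 2 with DESeq2 and 2 without a filter on low counts, and 0 to 1 on leaving out 1 library (1 without wt female 39). In 16p11.2 males 1 was called with DESeq2 and 1 with all 16 libraries in 1 fit, and between 16p11.2 wt sexes 1 with DESeq2. Leaving out any 3g wt animal left 1 call of footprints against RNA. Calls lost were those of Oprk1 (3g) and Dagla (16p11.2, also without a filter, adjusted p = 0.0585), and Dagla in the 3g line passed with DESeq2 (adjusted p = 0.0363) and RLE scaling (0.0464).

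Over all genes, DESeq2 called 1 gene and 121 genes in males and females of the 3g line, 38 and 50 in those of the 16p11.2 line, 3 for genotype by sex in the 16p11.2 line, 32 and 44 between wt sexes (3g, 16p11.2), 13 and 32 in lysate RNA, 13 and 18 in footprints and 13 and 7 in footprints per RNA. With no filter the counts were 158 in 3g females, 45 in 16p11.2 females, 15 between 16p11.2 wt sexes, 9 in 3g lysate RNA, 127 and 43 in footprints and 1 and 2 per RNA, and all 16 libraries gave 1 in 3g males. Leaving out 1 library gave 0 to 1 and 1 to 175 in males and females of the 3g line, 17 to 26 and 22 to 28 in those of the 16p11.2 line, 6 to 14 and 6 to 20 between wt sexes, 3 to 12 and 10 to 19 in lysate RNA, 0 to 24 and 2 to 13 in footprints and 0 to 4 and 1 to 2 per RNA. DESeq2 called 3947 genes as higher and 3228 as lower in 3g wt footprints than in lysate RNA, and 4235 and 3127 in the 16p11.2 line.

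The replicate block, pairing footprints and RNA of an animal, called 10 genes per RNA in each line and 0 members, and 2 and 4 members for wt footprints against RNA, as without it. With RNA-seq numbers as a block, Oprk1 in 16p11.2 males had an adjusted p of 0.641, and 14, 22 and 6 genes were called in males, females and between wt sexes.

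The 20 log2 differences that changed sign did so on leaving out 1 library, each without a call. For 3g males the range was Faah -0.12 to 0.22. For 3g females the ranges were Oprk1 -0.12 to 0.058, Mgll -0.047 to 0.074. For 16p11.2 males the range was Oprm1 -0.030 to 0.53. For genotype by sex in the 16p11.2 line the range was Oprm1 -0.33 to 0.24. For wt females against males of the 3g line the ranges were Mgll -0.23 to 0.072, Faah -0.25 to 0.17. For 3g lysate RNA the ranges were Oprl1 -0.17 to 0.13, Faah -0.15 to 0.16. For 16p11.2 lysate RNA the ranges were Oprm1 -0.22 to 0.075, Oprk1 -0.19 to 0.14, Cnr1 -0.41 to 0.036. For 3g footprints the range was Oprd1 -0.65 to 0.20. For 16p11.2 footprints the range was Oprd1 -0.44 to 0.70. For 3g footprints per RNA the range was Oprd1 -0.60 to 0.31. For 16p11.2 footprints per RNA the ranges were Oprd1 -0.39 to 0.59, Oprl1 -0.13 to 1.21. For 3g wt footprints against lysate RNA the ranges were Oprm1 -1.05 to 0.077, Oprd1 -0.16 to 0.77. For 16p11.2 wt footprints against lysate RNA the range was Oprl1 -0.16 to 0.52. The cause was not tested. Levels per transcript length were not run. Footprint depth limits Oprm1, Oprk1 and Oprl1, with 1 to 20 counts a library.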
